A study of Mus musculus with 3 samples.

Results

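Mouse CD4+ T cells activated with IL-6 alone, named Th22 by the submitters, were compared with T cells activated without added cytokine, named Th0. The comparison covers every gene that has a probe with 1 gene symbol, 19938 genes, with 1 array on each side. Genes matched only by the 1621 probes with several symbols are not among them. The genes described are those at least 2-fold apart. By this rule 109 genes (0.547% of all) lay higher in Th22 and 52 (0.261%) lay lower. Quantile normalization of the arrays gave 150 and 158, so the excess of higher genes was not kept. It was run on values already centred on each probe's middle array, so it cannot show how the excess depends on array scaling. Together the 109 and 52 are 161 genes, or 0.808%. With 1 array a group there is no replicate check and no test, so every difference is a size read from 2 arrays. The number of arrays limits the precision.

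The T cells were naive splenic CD4+ cells of the OT-II strain, B6.Cg-Tg(TcraTcrb)425Cbn/J, whose transgenic T cell receptor recognises an ovalbumin peptide. They were sorted as CD4+CD25-CD62LhighCD44low. All groups shared the activation: Ova peptide with splenic antigen-presenting cells that had been depleted of T cells and came from Il23a-/- mice, in RPMI medium with fetal calf serum. Th22 cells received IL-6, Th0 cells received nothing more, and Th17 cells, the series' other sample, received IL-6 + TGFβ. After 60 hours the cells were purified on magnetic beads and their RNA was biotin-labelled for a single-colour Affymetrix array. The labels do not say how many mice stood behind a sample. A strain with 1 receptor and presenting cells that cannot make IL-23 limit what the cultures model.

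IL-6 acts on T cells through a receptor made of IL-6Rα and the shared chain gp130. JAK kinases bound to that receptor phosphorylate STAT3, which enters the nucleus and binds DNA as a dimer, while SOCS3 limits the signal. In T cells this pathway is best known for the IL-17, IL-21 and IL-22 cytokines and for the IL-23 receptor.

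The deposited values are logs, with base and direction unstated. Base 2 was assumed, higher values were read as more RNA, and each probe is centred on its own middle array. A value of 0 therefore marks the array between the other 2, and values below or above 0 are distances from it. Levels are lost: a gene with no signal and a gene with the same signal on every array both read 0. Of the 19938 genes 7507 (37.7%) were equal on all 3 arrays. Among the other 12431 genes, the share past 2-fold was 0.877% on the higher side and 0.418% on the lower. The equal genes were spread unevenly. They included 667 of 1027 olfactory and 105 of 163 vomeronasal receptor genes, but 0 of 37 cell division genes and 0 of 10 pan T cell markers. Whether arrays without signal share a floor, which would set the fold of a gene read from it, was not tested. The median gene differed by 0. Of all genes, 8985 were equal between Th22 and Th0, 4736 were above 0 and 6217 were below 0. The Th17 value is given beside the others for scale. It is set against the same Th0 array and is no independent support.

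For the higher genes the median was 2.50-fold and the largest 29.0-fold, with 21 genes at 4-fold or more and 8 genes at 8-fold or more. The lower genes had a median of 2.61-fold and a largest of 20.7-fold, with 14 genes at 4-fold or more and 3 at 8-fold or more. Many genes lay close to the threshold: 72 of the higher genes and 30 of the lower ones were under 3-fold. Just inside it on the higher side were H2-Q10, Egfr, Gnal, Dntt and Kdelr3 at 2.00 to 2.04-fold, and just outside it were Siah3, Bcl6, Ccr3, Plekhf1 and Syt11 at 1.99 to 1.96-fold. On the lower side Irf8, Prxl2a, Nrgn, Tnfsf10 and Ms4a4c lay just inside at 2.04 to 2.16-fold, and Xdh, Dusp4, Akr1c13, Gbp4 and F2r lay just outside at 2.00 to 1.97-fold.

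**Figure D1:**
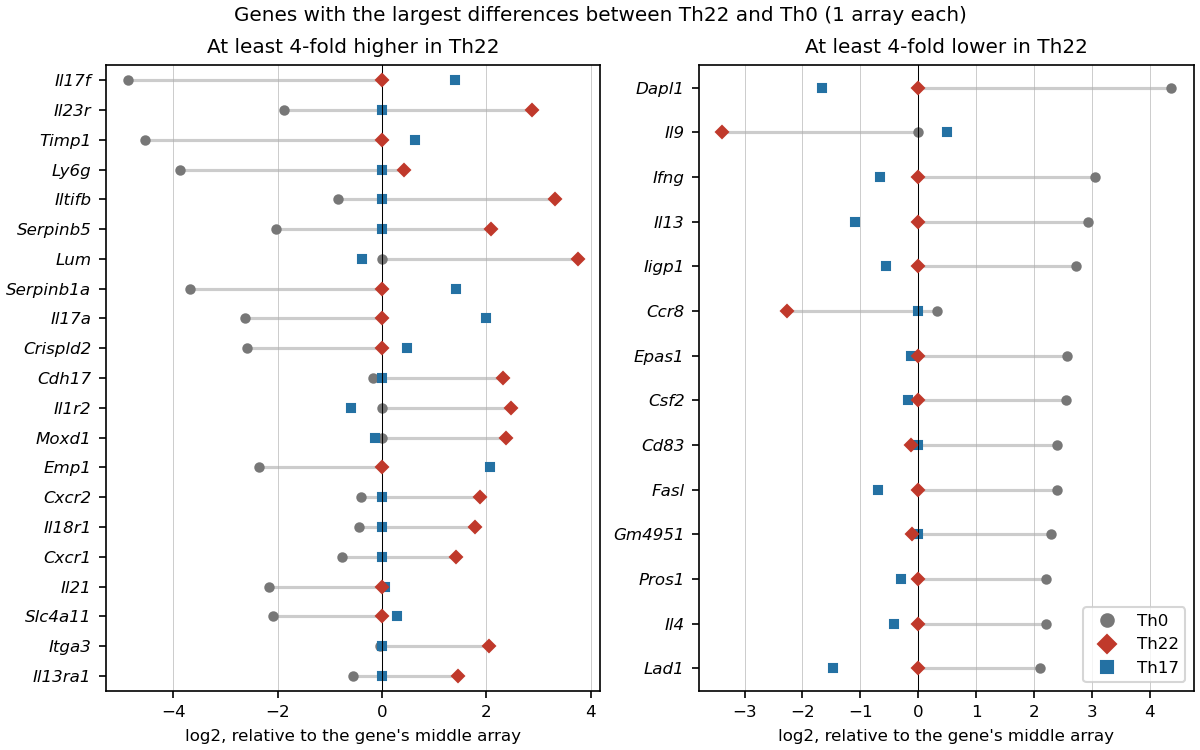
Values on the 3 arrays (log2, relative to each gene's middle array) of the 21 genes that Th22 holds at 4-fold or more above Th0 (left) and the 14 at least 4-fold lower (right). Each point is 1 array, and the grey line spans the Th22 and Th0 values, from 29.0-fold for Il17f to 4.04-fold for Il13ra1 on the left and from 20.7-fold for Dapl1 to 4.29-fold for Lad1 on the right.

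Pan T cell markers were compared first. Since levels are lost, their differences cannot show what cells the samples hold. All 10 measured pan T cell markers were slightly above 0 in Th22 minus Th0, from 0.01 for Lat to 0.32 for Cd3d and Cd6, with Cd4 at 0.18 and a median of 0.12. None was 2-fold apart. In bulk samples fewer cells of a type and less RNA per cell cannot be told apart.

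Components of the IL-6 pathway itself differed little. None of 8 IL-6 family ligands, 8 receptor chains and kinases, 6 STAT factors and 17 inhibitors was 2-fold apart. Il6ra, the IL-6 binding chain, read -0.86 in Th0, 0 in Th22 and 0.27 in Th17. Socs3, the inhibitor, read -0.79, 0 and 0.30 in the same order. Th0 was the lowest array for both. Stat3 differed by 0.16 log2, Jak1 by -0.01 and Il6st, which encodes gp130, by -0.10. Of 30 genes commonly named as STAT3 targets, 6 were at least 2-fold higher (20%, beside 0.547% of all genes) and 0 lower. The list median was 0.08 log2. The 6 were Il17f, Il23r, Timp1, Il17a, Il21 and Rora. This list was chosen with earlier results of these data known, so its share is a description and no test. Several well known targets lay under the threshold: Bcl6, the factor of follicular helper cells, was higher by 0.98 log2, Bcl3 by 0.79 and Maf by 0.72. Il24 differed by -0.81 and Il10, an anti-inflammatory cytokine, by -0.67.

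STAT dimers bind a palindrome, and its core letters were looked for in RefSeq promoters (GRCm38.p6), from 250 bases before to 50 after each start. The motif searched was TTCNNNGAA, which is its own reverse complement, so 1 search covers both strands. It stood in the promoter of 1403 of 15614 genes with an entry (8.99%), of 8 of 81 higher genes (9.88%) and of 8 of 42 lower genes (19%). Among the genes with the largest differences, none of Il17f, Il23r, Timp1, Dapl1, Ly6g, Iltifb, Serpinb5 and Il9 had these letters in the window. Lum and Serpinb1a, which rank among them, had no promoter entry. A match describes letters and not a site in use, and no match says only that the letters are not in this window.

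Of the genes that do hold the motif, those with the largest differences are shown with the 250 bases before the start. The bases run 5′ to 3′ on the gene's strand, which is the plus strand for all of them. Capitals mark the motif. On the higher side these are Il1r2 at chr1:40085843-40086092, Moxd1 at chr10:24223267-24223516, Emp1 at chr6:135362681-135362930 and Il18r1 at chr1:40465756-40466005.
Il1r2: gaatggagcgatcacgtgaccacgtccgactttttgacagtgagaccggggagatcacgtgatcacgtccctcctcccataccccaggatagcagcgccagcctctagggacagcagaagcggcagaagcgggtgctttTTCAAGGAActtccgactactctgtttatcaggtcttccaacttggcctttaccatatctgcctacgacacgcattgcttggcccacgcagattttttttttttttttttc
Moxd1: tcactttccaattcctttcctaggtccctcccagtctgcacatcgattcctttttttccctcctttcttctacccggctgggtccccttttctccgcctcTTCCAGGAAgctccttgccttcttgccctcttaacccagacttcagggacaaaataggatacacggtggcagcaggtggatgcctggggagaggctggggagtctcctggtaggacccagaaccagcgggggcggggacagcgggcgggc
Emp1: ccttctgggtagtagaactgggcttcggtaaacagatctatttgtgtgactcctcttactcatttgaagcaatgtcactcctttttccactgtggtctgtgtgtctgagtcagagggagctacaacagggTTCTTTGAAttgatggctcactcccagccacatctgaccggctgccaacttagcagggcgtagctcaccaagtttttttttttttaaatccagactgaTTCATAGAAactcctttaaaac
Il18r1: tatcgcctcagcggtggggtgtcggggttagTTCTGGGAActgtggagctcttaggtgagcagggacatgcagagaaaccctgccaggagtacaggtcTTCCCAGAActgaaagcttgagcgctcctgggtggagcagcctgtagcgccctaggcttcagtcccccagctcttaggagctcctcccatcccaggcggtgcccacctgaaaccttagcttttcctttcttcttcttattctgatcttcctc
Emp1 and Il18r1 hold the motif 2 times each. On the lower side they are Ifng at chr10:118440796-118441045 and Pros1 at chr16:62854057-62854306.
Ifng: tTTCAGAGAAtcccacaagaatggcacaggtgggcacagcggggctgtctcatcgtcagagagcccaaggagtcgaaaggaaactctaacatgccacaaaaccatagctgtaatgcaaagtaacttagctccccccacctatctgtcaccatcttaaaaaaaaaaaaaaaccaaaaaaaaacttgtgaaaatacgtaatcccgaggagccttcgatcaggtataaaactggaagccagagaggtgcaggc
Pros1: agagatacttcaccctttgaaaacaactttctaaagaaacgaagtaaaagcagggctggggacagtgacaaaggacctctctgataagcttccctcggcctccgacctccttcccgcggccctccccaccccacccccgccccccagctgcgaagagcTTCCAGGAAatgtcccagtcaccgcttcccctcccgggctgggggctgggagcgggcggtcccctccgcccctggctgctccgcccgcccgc
The motif stands near the far end of the Ifng window and nearer the start in Pros1.

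Protease inhibitors were among the largest differences. Timp1, the tissue inhibitor of metalloproteinases, read -4.55 in Th0, 0 in Th22 and 0.62 in Th17, a difference of 23.4-fold between Th22 and Th0. Serpinb5, or maspin, read -2.03, 2.09 and 0, a 17.4-fold difference. Serpinb1a, an intracellular inhibitor of neutrophil serine proteases, read -3.68, 0 and 1.42, a 12.8-fold difference. Th0 was the lowest array for all of them, and Th22 the highest for Serpinb5 alone. Serpinf1, which encodes the secreted factor PEDF, was 2.39-fold higher in Th22. Serpinb9, the granzyme B inhibitor that shields cytotoxic cells, went the other way: it read 1.47, 0 and -3.56 and was 2.76-fold lower in Th22. Of 48 measured serpins 3 were higher (6.25%, beside 0.547% of all genes) and 1 lower (2.08%, beside 0.261%). Of 4 TIMP genes 1 was higher. Few proteases differed. None of 22 matrix metalloproteinases, 28 coagulation factors or 10 granzymes was 2-fold apart, and the nearest granzymes were Gzmc at -0.95 log2 and Gzmb at -0.91. Of 57 ADAM and ADAMTS genes only Adam19 was, 2.36-fold higher, and of 21 cathepsins only Ctsw, a protease of killer cells, which read -1.62, 0 and 1.98 and was 3.07-fold higher.

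Matrix and secreted proteins gave 10 higher and 2 lower genes. Roles such as this one were given only to the 161 genes past 2-fold. Counts by role here and below therefore have no measured total, and stand beside 109 higher and 52 lower genes in all. Lum, which encodes the collagen-binding proteoglycan lumican, read 0 in Th0, 3.76 in Th22 and -0.38 in Th17, a 13.5-fold difference. Dcn, its relative decorin, read 0, 1.47 and -0.33, a 2.76-fold difference. Both were high on the Th22 array only. They were 2 of 17 small leucine-rich proteoglycans measured (11.8%, beside 0.547% of all genes), and the next, Podnl1, differed by 0.95 log2. Collagens did not accompany them: of 44 measured, 0 were above 0 and 14 below, none of them 2-fold. Among 16 fibroblast and stromal markers, Lum and Dcn were the only ones 2-fold apart. Col1a1, Bgn, Acta2, Fap, Loxl1, Pdgfrb and Postn were equal on all 3 arrays, Col3a1 and Sparc were equal in Th22 and Th0, and the remaining 5 lay between -0.17 and 0.11 log2. The list summed to 0.10 log2 in Th0 and 5.22 in Th22, nearly all of the latter from Lum and Dcn. Each gene is centred on its own middle array, so such a sum is no amount of a cell type.

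Crispld2, a secreted protein that binds lipopolysaccharide, read -2.59 in Th0, 0 in Th22 and 0.49 in Th17, which is 6.0-fold higher in Th22 than in Th0. Lbp, the lipopolysaccharide-binding protein made by the liver in the acute phase, read -1.26, 0 and 2.39 and was 2.40-fold higher. Igfbp4, which binds insulin-like growth factors, read -1.76, 0 and 0.55 and was 3.39-fold higher. Th0 was the lowest array for each of these genes. The gene listed as 2610528A11Rik, which encodes a ligand of the receptor GPR15, was 2.83-fold higher, and Sdc3, Ecm1 and Cpm, a cell surface proteoglycan, a matrix glycoprotein and a carboxypeptidase, were 2.14 to 2.63-fold higher. Pros1, or protein S, a cofactor in anticoagulation and a ligand of the TAM receptors, read 2.22, 0 and -0.30 and was 4.65-fold lower. It was the only 1 of 5 measured TAM receptor and ligand genes that was 2-fold apart. C1ql3, a secreted C1q-like protein, was 3.02-fold lower.

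**Figure D2:**
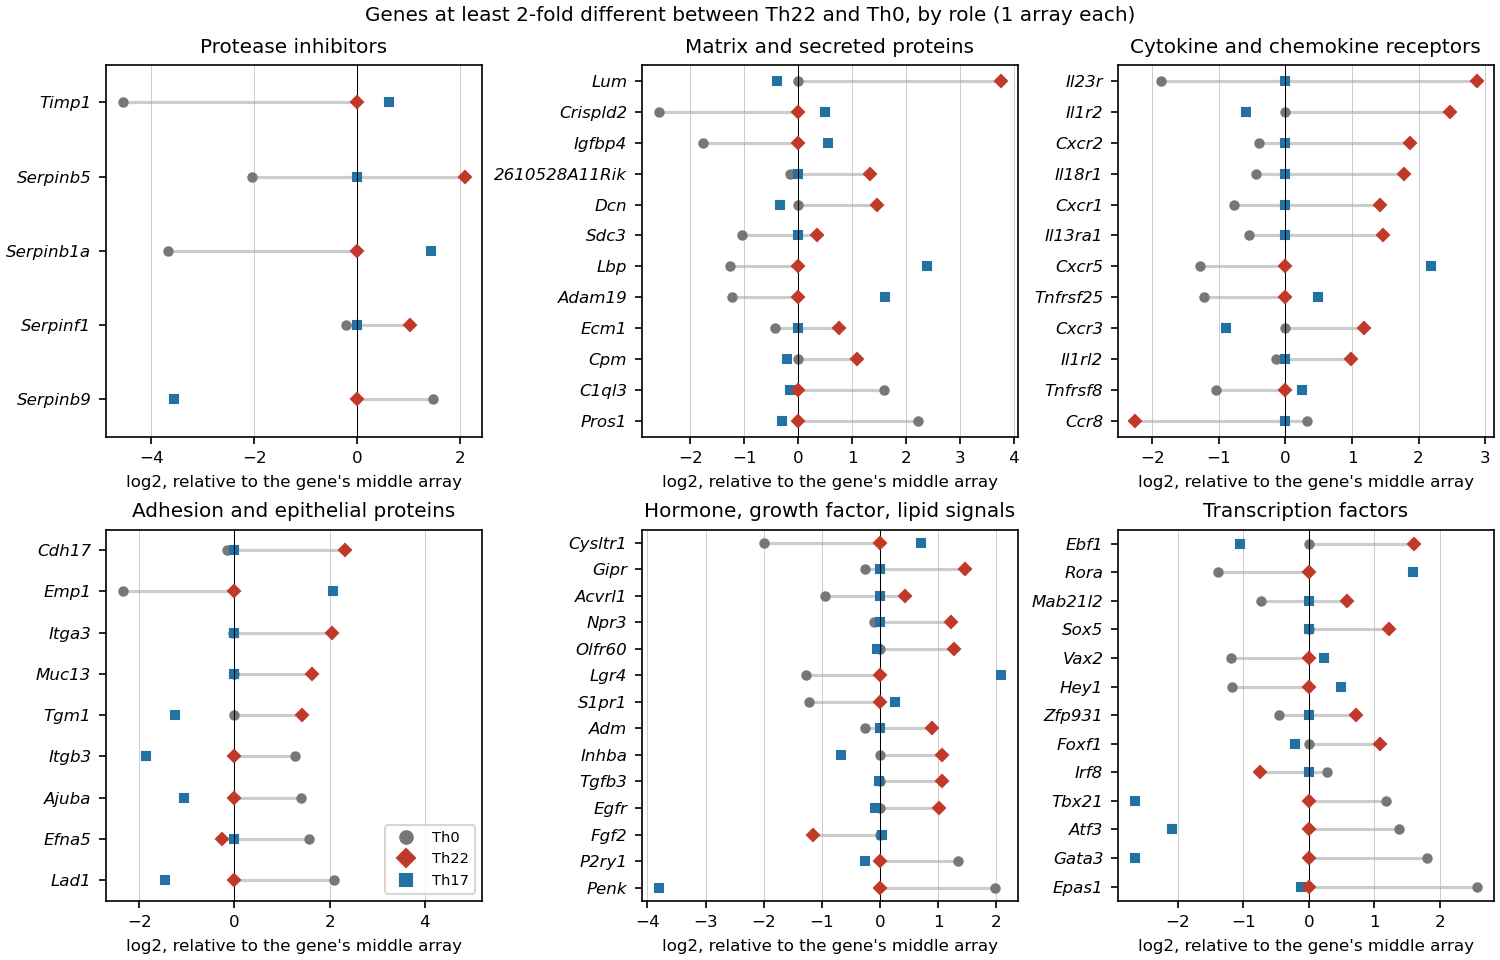
Values on the 3 arrays (log2, relative to each gene's middle array) of genes at least 2-fold apart between Th22 and Th0, in 6 groups by role. Each point is 1 array, and the grey line spans the Th22 and Th0 values; among the receptors 11 lie higher in Th22 than in Th0 and Ccr8 lies lower.

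Receptors for cytokines and chemokines gave 11 higher genes and 1 lower. Il23r, the IL-23 receptor, read -1.87 in Th0, 2.87 in Th22 and 0 in Th17, a 26.8-fold difference. From the IL-1 receptor group, Il1r2, the decoy receptor that binds IL-1 without signalling, read 0, 2.47 and -0.59 and was 5.56-fold higher. Il18r1, the IL-18 receptor chain, read -0.44, 1.79 and 0 and was 4.68-fold higher. Il1rl2, the IL-36 receptor, read -0.14, 0.98 and 0 and was 2.17-fold higher. These were 3 of 19 measured members of the IL-1 family and its receptors (15.8%, beside 0.547% of all genes). Th22 was the highest array for each of the 3. Il13ra1, a chain of the IL-4 and IL-13 receptors, was 4.04-fold higher. The TNF receptor family members Tnfrsf25, known as DR3, and Tnfrsf8, known as CD30, were 2.33-fold and 2.06-fold higher. They were 2 of 27 measured (7.41%, beside 0.547% of all genes).

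Among 22 measured chemokine receptors 4 were higher (18.2%, beside 0.547% of all genes) and 1 was lower (4.55%, beside 0.261%). Of the 22, 13 were above 0 against 3 below. Cxcr2 and Cxcr1, the receptors that draw neutrophils to CXCL8-type chemokines, read -0.39 and -0.77 in Th0, 1.88 and 1.42 in Th22, and 0 in Th17. They were 4.83-fold and 4.57-fold higher. Th22 stood alone at the top for both. Cxcr5, which guides cells to B cell follicles, read -1.28, 0 and 2.18 and was 2.43-fold higher. Cxcr3, a receptor typical of Th1 cells, read 0, 1.18 and -0.89 and was 2.26-fold higher in Th22. Ccr8, found on Th2 and regulatory cells, read 0.33, -2.26 and 0 and was 6.03-fold lower. Of 36 chemokines only Ccl17 was 2-fold apart, at 3.22-fold lower.

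Ly6g, a small surface protein that defines mouse neutrophils, read -3.87 in Th0, 0.42 in Th22 and 0 in Th17, a 19.5-fold difference. It belongs to the Ly6 and uPAR family, whose members are alike in sequence, so a probe may also see a relative. No other of the 33 measured members was 2-fold apart, the next being Ly6i at -0.33 log2. Ly6g and Cxcr2 were the only 2 of 19 neutrophil markers past the threshold (10.5%, beside 0.547% of all genes). Of the others 13 were equal on all 3 arrays, among them Mpo, S100a8, S100a9, Camp, Ltf, Lcn2 and Csf3r, Elane was equal in Th22 and Th0, and Ngp, Stfa3 and Stfa2 lay at -0.15, -0.13 and 0.16 log2. The list summed to -3.98 log2 in Th0 and 2.46 in Th22. Most of this came from Ly6g and Cxcr2, the latter at -0.39 in Th0 and 1.88 in Th22. A sum of centred values is no amount of a cell type.

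Over 6 marker lists of other cell types, 84 genes in all, 48 were equal on all 3 arrays. At least 2-fold higher were 6, beside 0.547% of all genes, and 0 were lower, beside 0.261%. Besides Ly6g, Cxcr2, Lum and Dcn these were Ebf1 and Klrc1. Ebf1, the early B cell factor, read 0 in Th0, 1.62 in Th22 and -1.05 in Th17 and was 3.07-fold higher, while 8 of 13 B cell markers, Cd79a, Cd79b and Pax5 among them, were equal on all arrays. Klrc1, the NKG2A receptor of natural killer cells, was 2.11-fold higher. Its list of 10 CD8 and natural killer cell markers had 3 above 0, 4 below and 3 at 0. Klrd1 differed by 0.30 log2 and Klre1 by 0.01, against Eomes at -0.79, Gzma at -0.63, Cd8b1 at -0.25 and Cd8a at -0.20. None of 19 myeloid and dendritic cell markers passed, and their range was -0.21 to 0.23 log2. The part of such cells in these differences was not tested. Presentation genes of class II ranged from -0.79 for Cd74 to 0.68 for H2-Ab1.

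**Figure D3:**
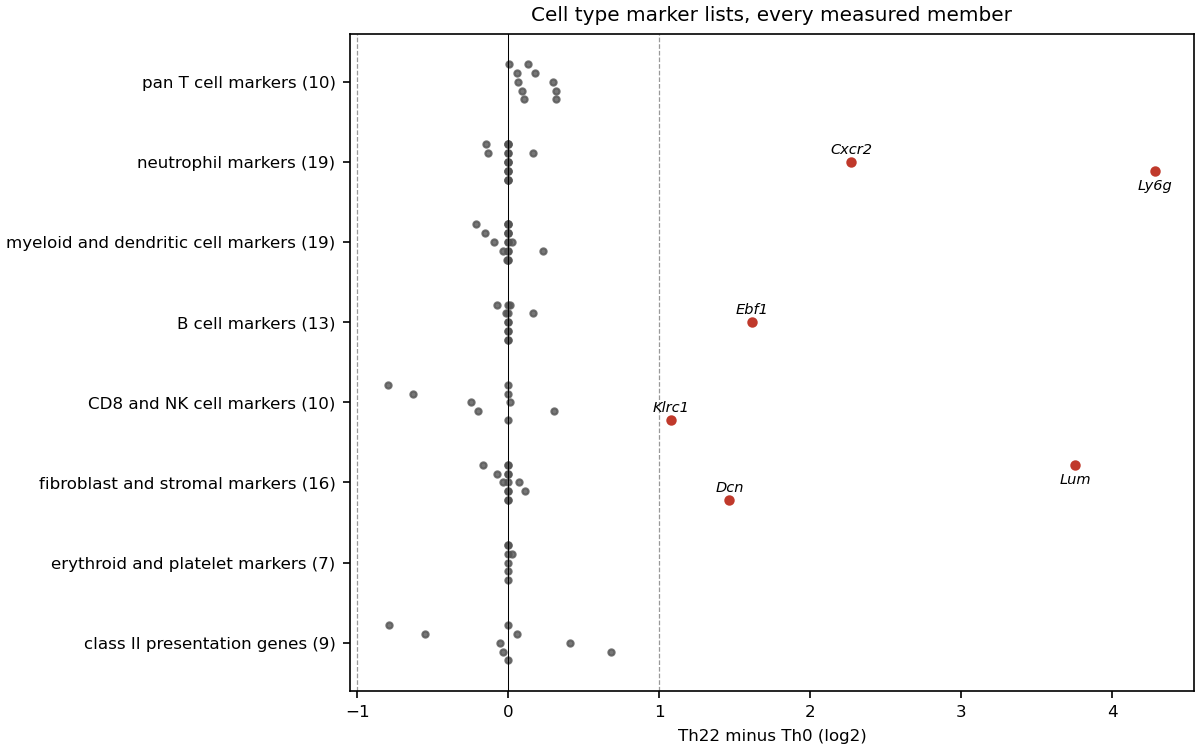
Th22 minus Th0 (log2) for every measured member of 8 marker lists, 1 point a gene, with the number of members in brackets and dashed lines at 2-fold. The named points are the 6 markers past 2-fold, Ly6g, Cxcr2, Lum, Dcn, Ebf1 and Klrc1, and most other points lie at or near 0.

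Adhesion and epithelial genes gave 5 higher and 4 lower. Cdh17, an intestinal cadherin, read -0.17 in Th0, 2.32 in Th22 and 0 in Th17 and was 5.61-fold higher, the only 1 of 23 cadherins past the threshold. Itga3, the integrin α3 chain of laminin receptors, read -0.03, 2.04 and 0 and was 4.22-fold higher. Muc13, a membrane mucin of the gut, read 0, 1.63 and 0 and was 3.08-fold higher. On these genes Th0 and Th17 lay together and Th22 stood above both. Tgm1, the transglutaminase of the skin's cornified envelope, was 2.67-fold higher. Emp1, an epithelial membrane protein, read -2.35, 0 and 2.07 and was 5.09-fold higher. Itgb3, the β3 chain of the vitronectin and platelet integrins, read 1.26, 0 and -1.85 and was 2.40-fold lower, so that 31 measured integrins gave 1 gene each way. Lad1, a protein of the basement membrane zone, read 2.10, 0 and -1.47 and was 4.29-fold lower. Efna5, 1 of 21 ephrins and Eph receptors and the only 1 past the threshold, was 3.57-fold lower, and Ajuba, a LIM protein of cell junctions, was 2.62-fold lower.

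Hormone, growth factor, lipid and nucleotide signals gave 11 higher and 3 lower genes, most of them under 3-fold. Cysltr1, the receptor for cysteinyl leukotrienes, read -1.99 in Th0, 0 in Th22 and 0.71 in Th17 and was 3.98-fold higher. Gipr, the receptor for the gut hormone GIP, read -0.27, 1.46 and 0 and was 3.30-fold higher. S1pr1, the sphingosine 1-phosphate receptor that lets T cells leave lymph nodes, read -1.22, 0 and 0.25 and was 2.33-fold higher. Peptide signals were also higher: Adm, or adrenomedullin, at 2.23-fold, and Npr3, the clearance receptor for natriuretic peptides, at 2.50-fold. From the TGFβ superfamily, the receptor Acvrl1 and the ligands Inhba and Tgfb3 were 2.08 to 2.62-fold higher. Lgr4, the R-spondin receptor, was 2.41-fold higher, and Egfr, the epidermal growth factor receptor, 2.01-fold. Penk, the precursor of the enkephalins, read 1.98, 0 and -3.80 and was 3.94-fold lower. Fgf2, a fibroblast growth factor, read 0, -1.16 and 0.04, with Th22 alone at the bottom, and was 2.23-fold lower. P2ry1, an ADP receptor, was 2.52-fold lower. Olfr60 at 2.41-fold was the only 1 of 1027 olfactory receptor genes past the threshold (0.0974%).

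Of the cytokines, 4 were higher and 6 lower, besides Ccl17. Il17f read -4.86 in Th0, 0 in Th22 and 1.39 in Th17, and Il17a read -2.62, 0 and 1.99, which is 29.0-fold and 6.14-fold higher. Il21 was 4.46-fold higher. Iltifb, a mouse copy of the IL-22 gene, read -0.85, 3.32 and 0 and was 18-fold higher, and its probe may also see Il22. Genes of type 2 cytokines were lower: Il9 read 0, -3.40 and 0.50, a 10.5-fold difference, and Il13, Il4 and Il5 were 7.68, 4.60 and 3.14-fold lower. Il9 was the only one of these with Th22 far below both other arrays. Ifng, the Th1 cytokine, was 8.36-fold lower, and Csf2, which encodes GM-CSF, 5.86-fold.

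Of 16 measured TNF ligands 4 were at least 2-fold lower (25%, beside 0.261% of all genes) and 0 higher. Of the 16, 6 lay above 0 and 7 below, and their median was 0. Fasl, the Fas ligand, read 2.40 in Th0, 0 in Th22 and -0.69 in Th17 and was 5.27-fold lower. Tnfsf4, or OX40 ligand, read 1.27, 0 and -0.83 and was 2.41-fold lower. Tnfsf11, or RANK ligand, and Tnfsf10, or TRAIL, were 2.18-fold and 2.15-fold lower. Th0 was the highest array for all of them. The highest members were Ltb, or lymphotoxin β, at 0.64 log2, and Tnfsf9 and Cd40lg, the ligands of 4-1BB and CD40, at 0.58 and 0.41. A list of 21 B7, CD28 and other costimulatory or inhibitory surface genes gave 2 lower (9.52%, beside 0.261% of all genes). These were Cd83 at 5.76-fold and Cd96 at 2.36-fold. Its B7 and CD28 members Cd80, Cd86, Cd274, Pdcd1lg2, Cd28, Ctla4, Icos, Pdcd1 and Btla were all under 2-fold.

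Interferon-inducible genes past the threshold were 7 lower and 2 higher, and the lists differed. Of 11 listed immunity-related GTPases, which attack vacuoles of intracellular microbes, only 4 were measured. Among these 3 were lower (75%, beside 0.261% of all genes), with a list median of -1.30 log2. Iigp1 read 2.73 in Th0, 0 in Th22 and -0.56 in Th17 and was 6.64-fold lower. Irgm1 read 0.75, -0.59 and 0 and was 2.54-fold lower, and Gm12250 was 2.40-fold lower. Gm4951, another interferon-inducible GTPase gene, was 5.25-fold lower, and Gm4841, which lies between it and Iigp1, was at -0.84 log2. Neither is on the list, so its share leaves them out. Guanylate-binding proteins, their partners, had 1 of 8 past the threshold, Gbp7 at 2.30-fold, with 7 of 8 below 0 and a median of -0.42 log2. Among 30 other interferon-induced genes 23 were below 0, with a median of -0.23, and Usp18, the enzyme that removes ISG15 from proteins, was 2.56-fold lower. Ube2l6, which attaches ISG15, was 2.69-fold lower. The largest list, of 34 IFIT, IFITM, OAS, Mx and Schlafen genes, had 11 above 0, 13 below and a median of 0. Its only gene past the threshold was higher: Ifitm1, a membrane protein that blocks virus entry, read 0, 1.76 and -0.56 and was 3.38-fold higher, from 2 probes at 1.51 and 2.01 log2. Dhx58, the RNA sensor LGP2, was also higher, at 2.22-fold. Ifng, the main inducer of the GTPases, was itself 8.36-fold lower, and whether it had a part in these differences was not tested.

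**Figure D4:**
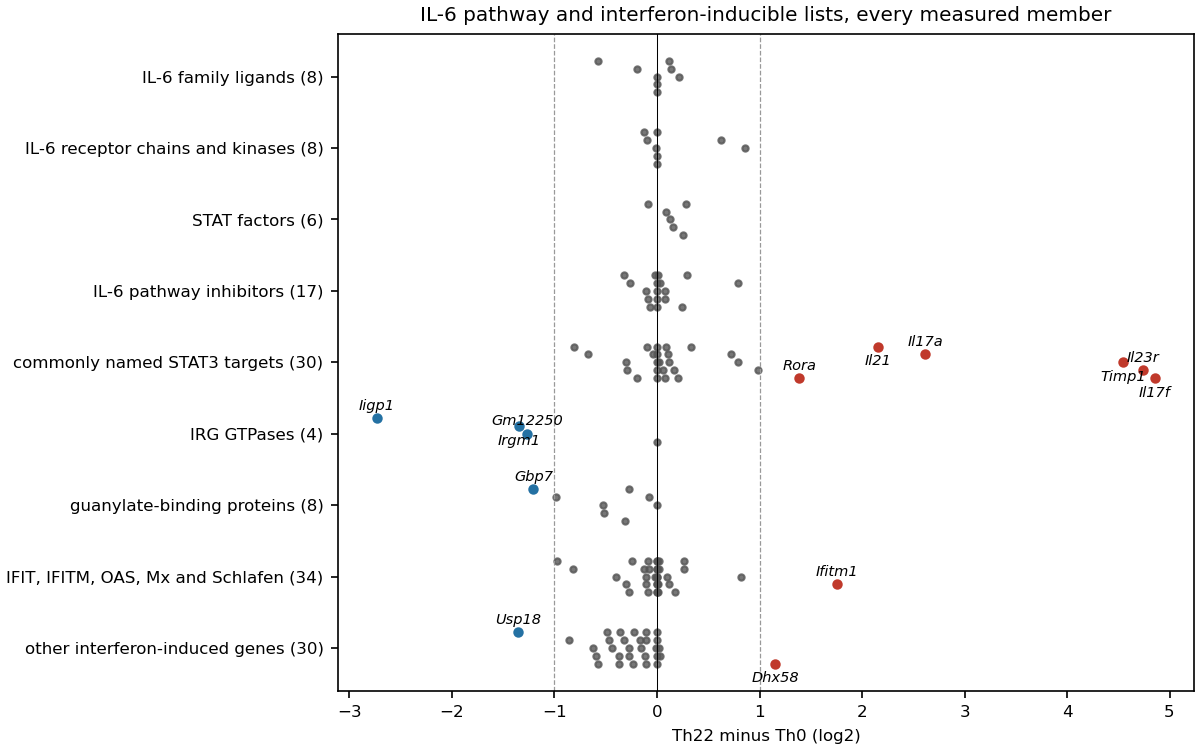
Th22 minus Th0 (log2) for every measured member of 5 IL-6 pathway lists and 4 interferon-inducible lists, 1 point a gene, with the number of members in brackets and dashed lines at 2-fold. Named points passed 2-fold: 6 STAT3 targets to the right, and Iigp1, Irgm1, Gm12250, Gbp7 and Usp18 to the left, against Ifitm1 and Dhx58 on the right.

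Transcription factors gave 8 higher and 5 lower genes. Besides Ebf1, Rora, a nuclear receptor that works with RORγt in Th17 cells, read -1.39 in Th0, 0 in Th22 and 1.60 in Th17 and was 2.62-fold higher. Sox5 read 0, 1.22 and 0 and was 2.34-fold higher, 1 of 21 genes with the Sox stem. Hey1, a Notch target, the developmental factors Vax2, Mab21l2 and Foxf1, and the zinc finger gene Zfp931 were 2.13 to 2.50-fold higher. The probes of Foxf1 differed, at 0.66 and 1.52 log2. On the lower side Epas1, the hypoxia factor HIF-2α, read 2.57, 0 and -0.12 and was 5.92-fold lower. Th22 and Th17 lay together below Th0 there. Gata3, the Th2 factor, read 1.81, 0 and -2.65, and Tbx21, the Th1 factor T-bet, read 1.18, 0 and -2.66, which is 3.50-fold and 2.27-fold lower in Th22. Atf3, a stress factor, and Irf8, an interferon regulatory factor, were 2.59-fold and 2.04-fold lower.

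Signalling proteins gave 16 higher and 2 lower genes, of the 109 higher and 52 lower in all. S100a6, a calcium-binding protein, read 0 in Th0, 1.90 in Th22 and -0.30 in Th17 and was 3.74-fold higher, the only 1 of 18 S100 genes past the threshold. Gem, a small GTPase that restrains calcium channels, was 3.45-fold higher, and Txk, a T cell kinase of the Tec family, 3.15-fold. Gnb5, Trib2 and the phosphatases Ptprj and Ptpn14 were 2.74 to 3.07-fold higher. The remaining 9 higher genes, Alpk2, Pik3ap1, Prkar1b, Klhl6, Rapgef5, Rgcc, Ppm1j, Ripor2 and Gnal, were 2.03 to 2.35-fold higher. Pde1a, a calmodulin-dependent phosphodiesterase, and Nrgn, or neurogranin, which binds calmodulin, were 2.30-fold and 2.11-fold lower. Most cell division genes lay slightly below 0, and of 37 measured none was 2-fold apart. Of these 34 were below 0, 2 above and 1 at 0, with a median of -0.15 log2. Over all 19938 genes 6217 were below 0, 4736 above and 8985 at 0, with a median of 0. Genes of the amino acid stress response had 14 of 17 below 0 and a median of -0.30 log2.

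Enzymes gave 15 higher and 3 lower genes from many pathways. Moxd1, a relative of dopamine β-hydroxylase, read 0 in Th0, 2.37 in Th22 and -0.14 in Th17 and was 5.19-fold higher. Car5b, a mitochondrial carbonic anhydrase, Pigz, of the GPI anchor pathway, and Dgat1, which makes triglycerides, were 2.80 to 3.29-fold higher. Akr1b8, Smox, Gcnt1, Gstt1, Pygl, Smpdl3a, Gatm, Upp1, Ust and Dntt were 2.04 to 2.59-fold higher; they include a spermine oxidase (Smox), a glycogen phosphorylase (Pygl) and terminal transferase (Dntt). Crabp2, which carries retinoic acid, Pter and Prxl2a were 2.11 to 2.42-fold lower. Glycolysis (18 genes), cholesterol synthesis (20) and fatty acid genes (18) had none past the threshold. Transporters gave Slc4a11, of the bicarbonate transporter family, at -2.10, 0 and 0.28 and 4.28-fold higher, and Atp6v0d2, a subunit of the proton pump, at 2.91-fold higher. Slc41a2 and Slc38a3 were 2.09-fold and 2.05-fold higher, Slc1a2, a glutamate transporter, 2.25-fold lower, and the potassium channel subunit Kcnmb1 2.23-fold lower. Over 376 solute carriers this is 3 higher (0.798%) and 1 lower (0.266%), close to the shares over all genes.

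Genes of the cytoskeleton and membrane traffic gave 9 higher and 3 lower. Ermn, an actin-binding protein known from myelin, read 0 in Th0, 1.91 in Th22 and -1.01 in Th17 and was 3.75-fold higher. Tubb2b, a β-tubulin, was 3.01-fold higher, and Myof, Mctp2, Pfn2, Dnm1, Stom, Flot1 and Kdelr3 were 2.04 to 2.76-fold higher. Scin, which severs actin, read 1.73, 0 and -0.31 and was 3.33-fold lower, and Gpm6b and Rai14 were 3.15-fold and 2.74-fold lower. Other leukocyte surface genes were Cd93, Timd2 and H2-Q10, at 2.00 to 2.55-fold higher, and Ms4a4c, 1 of 19 MS4A genes, at 2.16-fold lower. Genes with another or no known role were B430306N03Rik, Smim3, Tcp11l2, Fam183b and Fndc3c1, at 2.07 to 3.05-fold higher, and Gask1a, Snord118, 5430427O19Rik and 9330175E14Rik, at 2.21 to 2.26-fold lower. Dapl1, a small protein related to DAP1, had the largest difference on the lower side: it read 4.37, 0 and -1.67 and was 20.7-fold lower. Of 291 microRNA genes none was 2-fold apart.

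Of 90 family lists 44 held at least 1 gene past the threshold, 15 held 2 or more and 46 held none. The lists hold 43 of the higher and 34 of the lower genes, while 66 and 18 lie on no list. Most families with any gene past the threshold are thus present by a single gene.

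Several of these genes are neighbours on a chromosome. In the order of RefSeq protein-coding genes (assembly GRCm38.p6, used for order alone), 39 of 159 placed genes fell into 18 groups with at most 5 genes between members. Of the groups 8 were all higher, 3 all lower and 7 held both, and in 8 groups no gene lay between the members. Il17a and Il17f were side by side and both higher. So were Cxcr2 and Cxcr1, with the genes on either side, Rufy4 and Arpc2, at 0.32 and 0.11 log2, and Dcn and Lum, with Kera beyond Lum at 0. The receptors Il1r2, Il1rl2 and Il18r1 stood in 1 row, where Il1r1 and Il1rl1 between them were not analysed here. Next to that row Il18rap, the partner chain of Il18r1, was at 0 and Map4k4 at 0.70 log2. Gem and Cdh17 were another higher group. On the lower side Il4, Il13 and Il5 stood in 1 row with Rad50 at -0.44 log2, and Tnfsf4 and Fasl flanked Tnfsf18, which was at 0. Neighbours also went apart: Iltifb was 18-fold higher beside Ifng at 8.36-fold lower, Serpinb1a 12.8-fold higher near Serpinb9 at 2.76-fold lower, and Il21 4.46-fold higher near Fgf2 at 2.23-fold lower. No comparison of these numbers with other gene orders was made.

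**Figure D5:**
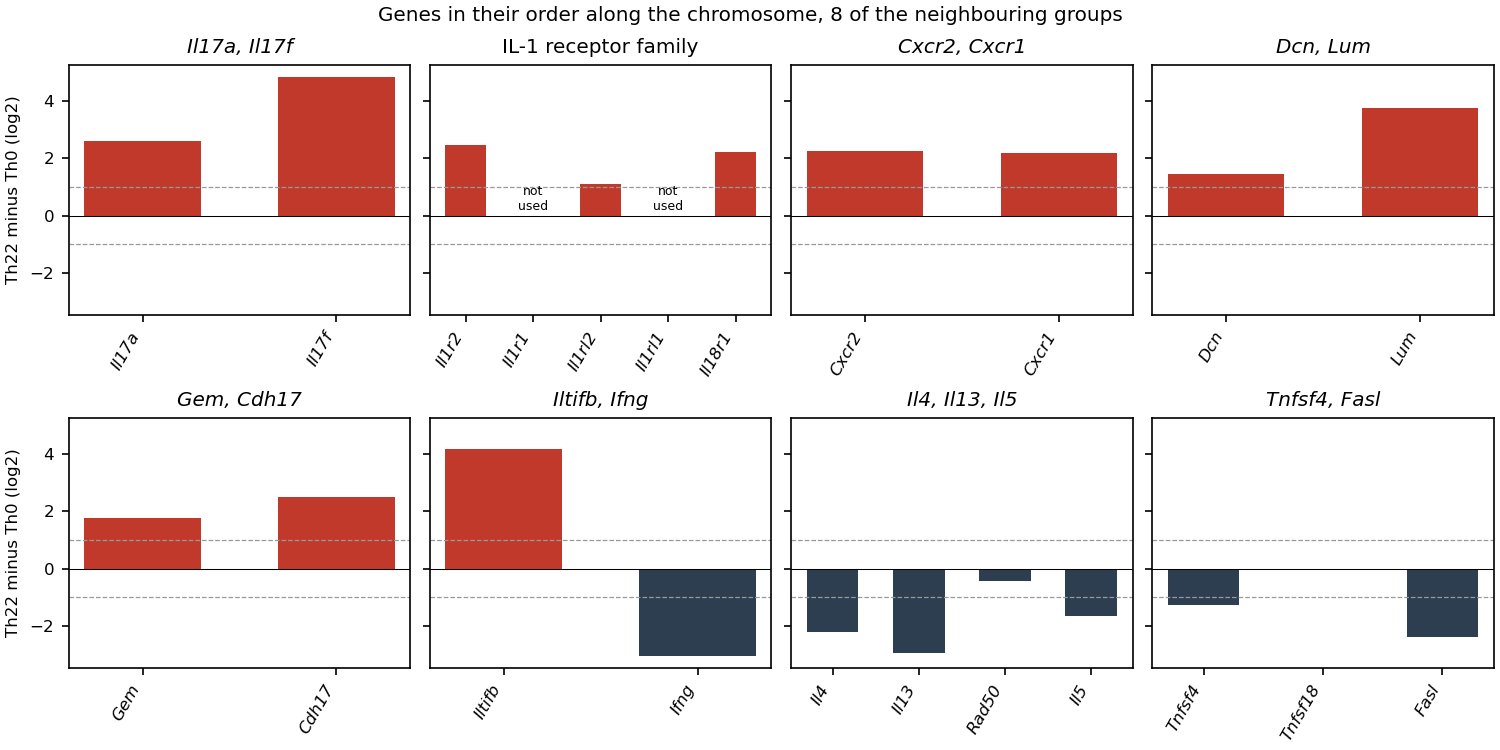
Th22 minus Th0 (log2) for the genes of 8 neighbouring groups, in their order along the chromosome, as bars from 0 with dashed lines at 2-fold; "not used" marks a gene with no value here. Iltifb and Ifng stand on opposite sides of 0, while the genes past 2-fold in each of the other groups lie on 1 side.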

How the data were processed

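Values came from the deposited table of 28853 probes for 3 arrays, which the authors gave on a log scale, taken here as log2. The sources used here name no software, background correction, normalization or log base, so these are not given. The median over the arrays was 0 for all 28853 probes, so each probe was centred by its own median, which removes levels and leaves differences. Names came from the platform annotation, and 21698 of 21789 probes with 1 symbol were updated by Entrez identifier with a RefSeq table of GRCm38.p6. Probes of a gene were averaged, giving 19938 genes, 999 of them with several probes. Between such probes the difference of Th22 minus Th0 had an SD of 0.14 log2, which leaves out the spread between cultures. Left out were 1621 probes with several symbols and 5443 unlisted ones.

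A gene was counted at 2-fold or more, with no test of the difference. The script that counts was tested on simulated data. Every gene past 2-fold is named, with members of the IL-6 pathway and marker lists. The threshold, gene lists and roles were chosen with earlier results of these data known, and the roles after their values were seen. Only genes past 2-fold were given a role, so counts by role are descriptions with no share over all genes. Some lists take every symbol with 1 stem. Alternatives were quantile normalization, another centring, the smallest probe, probes with several symbols, genes equal on all arrays left out, other thresholds and natural logs. Python 3.11.15, pandas 2.3.3 and numpy 2.4.6 were used.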

Additional observations from a re-analysis of the deposited data

Results flagged for a closer look

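Signal outside the genes with 1 symbol was seen in probes that match several genes. Of these 8 were at least 2-fold apart, 3 higher and 5 lower in Th22 than in Th0. A pair that matches Il22 and Iltifb was 28.7-fold and 28.8-fold higher. A pair that matches Xlr5a, Xlr5b and Xlr5c, X-linked genes expressed in lymphoid cells, was 6.05-fold and 4.14-fold lower, with Th0 at 2.60 and 2.05 log2, Th22 at 0 on both, and Th17 at -0.04 and 0. The Tgtp1 and Tgtp2 pair, interferon-inducible GTPases, was 2.53-fold and 2.48-fold lower, a probe for several guanylate-binding proteins 2.12-fold lower, and a probe for Tubb2a and Tubb2b 2.17-fold higher.

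Among the 5443 probes that the annotation does not list, 62 lay 2-fold or more above Th0 in Th22 and 4 lay as far below. Of the 62, 50 gave nearly the same value on each array: about -1.02 log2 in Th0, 0.08 in Th22 and 0 in Th17, with differences within 0.00305 log2 of each other, or 2.15-fold. The other 12 reached 14.3-fold higher, and the 4 lower ones 6.19-fold. These probes have no name here, and what they measure was not tested.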

How the results depend on the processing

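Another centring, and leaving out genes equal on all arrays, could not change the 109 higher and 52 lower genes. The shift of that centring was 0 log2, and genes equal on all arrays differ by 0. Taking the smallest probe of each gene gave 108 and 52, without Foxf1. Counting probes with several symbols gave 109 and 60, without Olfr60 and Zfp931 among the higher genes. Quantile normalization gave 150 and 158, with all 109 and 52 genes among them, so the excess of higher genes was not kept. It was run on the centred values, where Fgf2 went from -1.16 to -3.24 log2 and Timp1 from 4.55 to 3.89. It therefore cannot show whether the balance of the 2 directions depends on array scaling. At 1.5-fold the counts were 319 and 161, and at 3-fold 37 and 22. With natural logs, an alternative added after seeing the data, they were 233 and 110, and every fold would be larger. No gene past the threshold changed direction. No paired analysis was possible because each group had 1 sample. No replicate could be left out. Signal over background is unknown, since the centring removed levels.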
